A study of Mus musculus with 10 samples.

Results

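The 10 genes *Hspa5*, *Ddit3*, *Atf3*, *Atf4*, *Xbp1*, *Trib3*, *Chac1*, *Asns*, *Sesn2* and *Herpud1*, which answer to endoplasmic reticulum (ER) stress or amino acid shortage, were followed through the chemical conversion of mouse fibroblasts into extraembryonic endoderm (XEN)-like cells. They were taken by name from the 23197 genes of a single-cell count table, and all 10 were present. Mouse embryonic fibroblasts, which the study's methods describe as made from E13.5 ICR embryos, were cultured in reprogramming medium with the cocktail C6FAE. It holds the GSK3 inhibitor CHIR99021 (C, 20 μM), a TGF-beta receptor inhibitor (6, 10 μM), the adenylyl cyclase activator Forskolin (F, 50 μM), the retinoic acid receptor agonist AM580 (A, 0.05 μM) and the DOT1L inhibitor EPZ004777 (E, 5 μM). The labels name C6FAE for every sample, whereas the recipe for the medium in the methods also lists valproic acid. Single cells were picked by hand after enzymatic digestion and sequenced on days 0, 1, 2, 3, 4, 5, 6, 8, 12 and 20, called d0 to d20 here, with d0 as the starting fibroblasts.

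The table held 808 cells, of which 670 had at least 4000 detected genes and were kept. The kept cells numbered 72 at d0, 40 at d1, 83 at d2, 38 at d3, 77 at d4, then 36 at d5, 86 at d6, 62 at d8, 67 at d12 and 38 at d20. The filter removed 34 of 72 cells at d20, 12 of 84 at d0 and 5 of 72 at d12. Cells picked from colonies formed the groups d8c, with 20 kept cells, and d12c, with 51. The d6 cells carry an added p in their names, whose meaning is not stated. In d12c, the 24 cells with running numbers 1 to 24 and the 48 with numbers 49 to 96 were described apart, of which 21 and 30 were kept. No cell numbered 25 to 48 in this group passed the filter.

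Median depth over kept cells was 344196 unique molecular identifiers (UMIs, tags of single RNA molecules) at d0 and 749158 at d1. It was 676178 at d8, 768565 at d12, 276240 in the d12c cells numbered 49 to 96 and 195480 at d20. Cells could not be assigned to a library, so the course counts as 1 sample, and groups were compared by size with no test. A level is the mean over cells of CPM (UMIs of a gene per 1000000 UMIs of its cell), a difference is the log2 ratio of (mean CPM + 1), and a gene was called when its difference was over 1 in size. The share of all genes called was taken among genes with at least 5 CPM in either group, genes of the pathway lists were called only above that level too, and the 10 genes were counted at any level. Where genes are counted, higher and lower mean called in that direction. In place of replicates, means over blocks of 24 running numbers within a time point show how far a level varied inside a group. Where every block of a group lies above or below every block of the other, the blocks are said not to overlap.

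The labelled cell types were checked against marker genes. The 10 fibroblast markers summed to 3732 CPM at d0, with *Col1a1* the most abundant at 1237 CPM, and to 17435 CPM at d8, 13105 CPM at d12 and 297 CPM at d20. The 10 XEN markers summed to 130 CPM at d0, where 3 of them had no UMI, and to 241 CPM at d12 and 1816 CPM at d20, with *Sox17* at 982 CPM the most abundant. The d12c cells numbered 1 to 24 held 7996 CPM of fibroblast markers and 463 CPM of XEN markers, and those numbered 49 to 96 held 299 and 1253 CPM. *Pdgfra* alone of the fibroblast markers was higher at d20 than at d0, at 201 against 28.2 CPM. It was at 161 CPM in the d12c cells numbered 49 to 96, so most of both low sums was *Pdgfra*. Most of the XEN sum at d0 was *Lamb1* (71.6 CPM) and *Dab2* (55.1 CPM), and *Dab2* differed by only 0.03 at d20. Unpicked d12 cells were therefore rich in fibroblast markers, and the later-numbered colony cells resembled d20 cells in these lists. Macrophage markers summed to at most 49.8 CPM and endothelial markers to at most 36.8 CPM in the groups d0, d8, d8c, d12, d20 and both parts of d12c.

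Unfolded proteins in the ER set off the unfolded protein response, in which the sensor IRE1 splices the *Xbp1* mRNA, the sensor ATF6 is cut free, and the kinase PERK phosphorylates the translation factor eIF2α. Lack of amino acids acts on eIF2α through the kinase GCN2, so both signals raise translation of *Atf4*. ATF4 then induces *Ddit3*, *Atf3*, *Trib3*, *Chac1*, *Asns* and *Sesn2*, while ATF6 and spliced XBP1 induce chaperones and degradation factors such as *Hspa5* and *Herpud1*. The counts are per gene, so they tell neither spliced from unspliced *Xbp1* nor how much ATF4 protein was made.

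Promoters of the 10 genes, from 250 bases before to 50 after the start, were read from RefSeq (GRCm38.p6) to show the elements on which these branches act. The letters TGATGNAA, the core of the element bound by ATF4 with C/EBP factors, were found on either strand in 5 of the 10, against 3.97% of 32851 promoters. The ER stress element, CCAAT and CCACG with 9 bases of any kind between them, was found in *Hspa5* alone of the 10 and in 0.119% of all promoters. The second ER stress element, ATTGG and CCACG with 1 base between them, was found in *Herpud1* alone of the 10 and in 0.0365% of all. A full cAMP response element, TGACGTCA, was in none of the 10 and in 1.79% of all promoters, and its part TGACG, which the full element contains, was in 7 of the 10 and in 20.8% of all. In the windows of 60 bases below, in the direction of the gene, capitals mark the match, and TTGCATCA is the core read on the other strand.
Hspa5, ER stress element, chr2:34771999-34772058, plus strand: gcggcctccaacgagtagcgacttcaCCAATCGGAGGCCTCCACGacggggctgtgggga
Herpud1, second ER stress element, chr8:94386351-94386410, plus strand: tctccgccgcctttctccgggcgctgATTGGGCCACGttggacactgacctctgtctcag
Herpud1, ATF4 core, chr8:94386291-94386350, plus strand: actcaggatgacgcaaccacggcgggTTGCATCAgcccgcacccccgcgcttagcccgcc
Asns, ATF4 core, chr6:7693210-7693269, minus strand: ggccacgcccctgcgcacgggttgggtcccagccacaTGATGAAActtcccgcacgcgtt
Chac1, ATF4 core, chr2:119351023-119351082, plus strand: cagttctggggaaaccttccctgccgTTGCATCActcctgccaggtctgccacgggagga
Atf3, ATF4 core, chr1:191183410-191183469, minus strand: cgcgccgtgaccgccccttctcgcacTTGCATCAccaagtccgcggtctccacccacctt

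The core lies 23 to 16 bases before the start in *Asns*, 110 to 103 bases before it in *Atf3*, 112 to 105 bases before it in *Herpud1* and 193 to 186 bases before it in *Chac1*. In *Hspa5* the ER stress element lies 65 to 47 bases before the start, and in *Herpud1* the second element lies 52 to 42 bases before it. The fifth core match is in *Trib3* after its start. Positions of whole genes given further on are from the GENCODE annotation of NCBIM37 (mm9), a different build. *Herpud1* holds letters of both branches in its promoter, and the matches are letters only, since binding was not measured.

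*Hspa5* (chr2:34627490-34632051, plus strand), which encodes the ER chaperone BiP, had a UMI in every kept cell of every group. Its level was 1264 CPM at d0, 947 at d1, 997 at d2, 776 at d3, 1202 at d4, then 640 at d5, 739 at d6, 896 at d8, 1155 at d12 and 1239 at d20. Cells of d0 ranged from 113 to 4449 CPM with a median of 960 CPM, and those of d20 from 251 to 3601 CPM with a median of 1068 CPM. Block means of d0 ran from 1082 to 1543 CPM and those of d20 from 982 to 1530 CPM, so the groups overlapped. The chaperone passed the size rule at no day, and its lowest level, at d5, differed by -0.98 from d0.

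*Herpud1* (chr8:96910338-96919277, plus strand), a membrane component of ER-associated degradation that ER stress induces, was highest at d0. Its level was 94.3 CPM at d0, 45.3 at d1, 40.8 at d2, 24.3 at d3, 49.7 at d4, then 25.5 at d5, 37.6 at d6, 42.1 at d8, 32.3 at d12 and 23.5 at d20. The d0 cells ran from 0 to 420 CPM with a median of 53.3 CPM, and the median was 4.78 CPM at d12 and 0 at d20. At d0, 67 of 72 cells had a UMI and at d20, 17 of 38 (44.7%, 95% exact binomial interval 28.6 to 61.7%). After every cell was thinned to 50000 UMIs these shares were 73.2% and 30.6%. Every block mean of d0, from 61.1 to 142 CPM, lay above every block mean of d1, d8, d12 and d20.

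**Figure D1:**
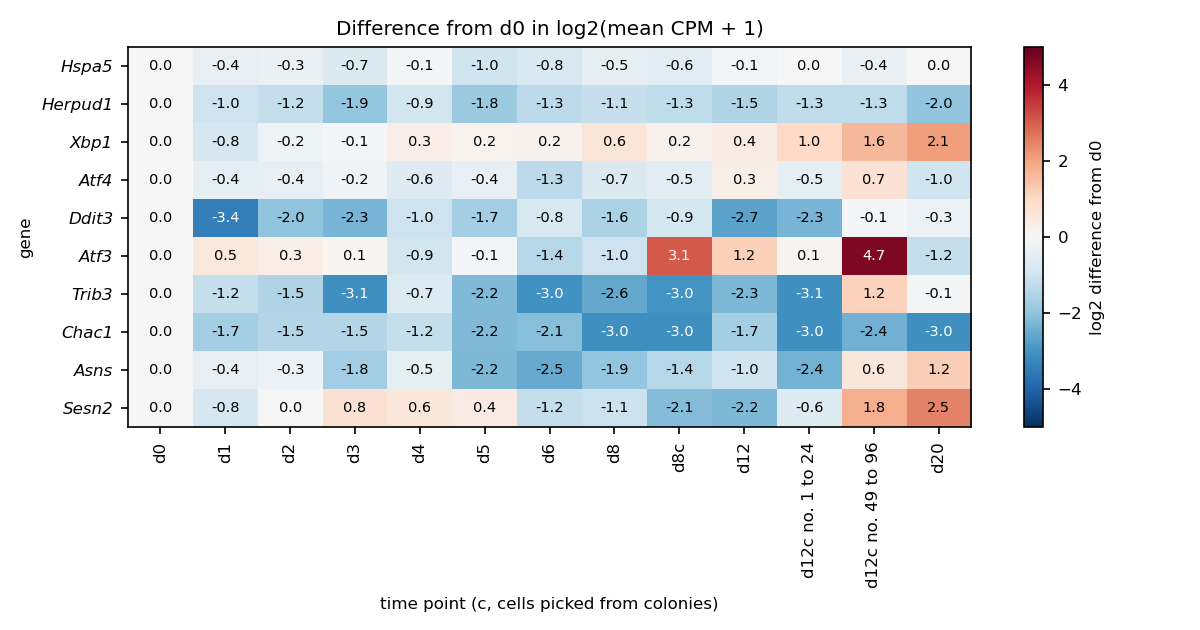
Log2 difference of (mean CPM + 1) from d0 for the 10 genes (vertical axis) over the time points and colony groups (horizontal axis), with colony cells of d12 in their 2 number ranges. *Herpud1* lies below d0 in every later group, *Hspa5* stays within 1 of it, and *Atf3* is highest in the d12c cells numbered 49 to 96 (4.67). Values of *Chac1* at d8, d8c, d20 and in the d12c cells numbered 1 to 24 come from groups with no UMI and are not bounds.

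*Xbp1* (chr11:5420662-5425896, plus strand), the transcription factor whose mRNA IRE1 splices, was low on the first day and high at the end. Its level was 83.0 CPM at d0, 46.5 at d1, 72.4 at d2, 77.0 at d3, 105 at d4, then 93.6 at d5, 96.1 at d6, 129 at d8, 110 at d12 and 356 at d20. At d0 the cells ran from 0 to 300 CPM with a median of 58.0 CPM, and at d20 from 7.74 to 832 CPM with a median of 362 CPM. The 3 block means of d20, from 296 to 422 CPM, were all above the 4 of d0, from 75.7 to 90.1 CPM. In d12c the level was 167 CPM in cells numbered 1 to 24 and 257 CPM in those numbered 49 to 96.

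*Atf4* (chr15:80085614-80087970, plus strand), the transcription factor shared by both stress signals, had a level of 170 CPM at d0, 124 at d1, 126 at d2, 151 at d3, 108 at d4, then 127 at d5, 68.5 at d6, 101 at d8, 206 at d12 and 85.3 at d20. Its d0 blocks, from 88.2 to 245 CPM, covered those of d1, d8 and d12 except where d8 fell to 85.1 CPM. The d20 blocks, from 67.2 to 99.1 CPM, lay below the d12 blocks, from 184 to 239 CPM. A UMI was present in 67 of 67 cells at d12 and in 26 of 38 at d20, and after thinning in 95.5% and 55.6%. *Atf4* mRNA was therefore lower at d20 than at d12, while its level in the d12c cells numbered 49 to 96 was 284 CPM.

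*Ddit3* (chr10:126727830-126733344, plus strand), which encodes the factor CHOP, changed most on the first day. Its level was 40.9 CPM at d0, 2.97 at d1, 9.30 at d2, 7.27 at d3, 19.6 at d4, then 11.8 at d5, 22.9 at d6, 13.1 at d8, 5.63 at d12 and 33.1 at d20. Of the d0 cells, 57 of 72 had a UMI and the median was 24.5 CPM, and at d1, 16 of 40 cells had one and the median was 0. The d20 level leaned on few cells, since 1 cell at 572 CPM gave 45.4% of the sum, the median was 0, and without that cell the level was 18.6 CPM. Thinned shares were 57.7% at d0, 17.5% at d1, 10.6% at d12 and 22.2% at d20.

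*Atf3* (chr1:192994175-193007219, minus strand), a repressor of the same family that many stresses induce, was low in the unpicked cells and high in d8c and the later-numbered d12c cells, but not in the d12c cells numbered 1 to 24. Its level was 4.56 CPM at d0, 7.11 at d1, 5.998 at d2, 4.89 at d3, 1.95 at d4, then 4.28 at d5, 1.06 at d6, 1.72 at d8, 11.7 at d12 and 1.45 at d20. It was 45.3 CPM in d8c, 5.04 CPM in the d12c cells numbered 1 to 24 and 141 CPM in those numbered 49 to 96. Of the latter, 25 of 30 cells had a UMI (83.3%, interval 65.3 to 94.4%), with a median of 50.5 and a highest value of 708 CPM. At d20, 3 of 38 cells had one. Colony cells of d8 and the later-numbered colony cells of d12 therefore stood above the unpicked cells of the same day and above d20.

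**Figure D2:**
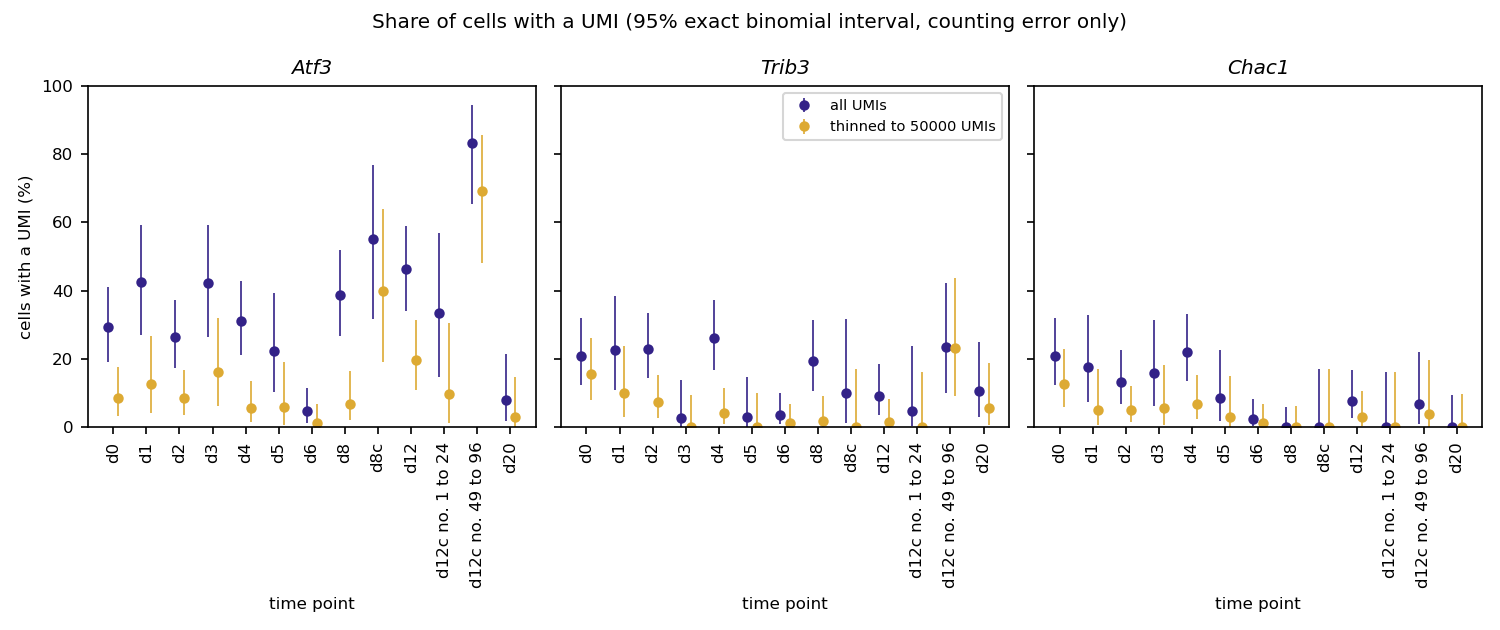
Percent of kept cells with at least 1 UMI of *Atf3*, *Trib3* and *Chac1* (vertical axis) by group (horizontal axis), before and after thinning to 50000 UMIs, and bars for 95% exact binomial intervals that cover counting error only. *Atf3* stands out in the d12c cells numbered 49 to 96 (83.3%, thinned 69.2%), and *Chac1* has no UMI at d8, d8c, d20 and in the d12c cells numbered 1 to 24.

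*Asns* (chr6:7625169-7643254, minus strand), which makes asparagine and is a standard target of ATF4, went down in the middle of the course and up at its end. Its level was 155 CPM at d0, 117 at d1, 126 at d2, 45.5 at d3, 111 at d4, then 32.0 at d5, 26.2 at d6, 40.0 at d8, 78.0 at d12 and 364 at d20. The median over cells was 101 CPM at d0, 4.39 at d6, 45.9 at d12 and 298 at d20. Block means of d8, from 31.1 to 50.9 CPM, lay below those of d0, from 72.8 to 176 CPM, and those of d20, from 302 to 402 CPM, lay above them. In d12c the level was 29.4 CPM with a median of 6.98 CPM in cells numbered 1 to 24. It was 232 CPM with a median of 218 CPM in cells numbered 49 to 96.

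*Sesn2* (chr4:132047947-132066416, minus strand), a stress-induced inhibitor of the growth kinase TORC1, had an intermediate level from d2 to d5 and its highest at d20. Its level was 15.02 CPM at d0, 7.94 at d1, 14.8 at d2, 26.2 at d3, 23 at d4, then 20.4 at d5, 5.97 at d6, 6.56 at d8, 2.38 at d12 and 88.7 at d20. *Sesn2* UMIs were found in 30 of 72 cells at d0, 13 of 67 at d12 and 30 of 38 at d20. Thinned shares were 29.6%, 6.06% and 75%. The d20 blocks, from 63.7 to 126 CPM, lay above all blocks of d0, from 1.89 to 24.3 CPM, and of d12, from 0.10 to 6.39 CPM.

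*Trib3* (chr2:152163158-152169768, minus strand), a pseudokinase that dampens ATF4 and CHOP, had a median of 0 in every group. Its level was 7.82 CPM at d0, 2.87 at d1, 2.15 at d2, 0.051 at d3, 4.42 at d4, then 0.91 at d5, 0.071 at d6, 0.48 at d8, 0.84 at d12 and 7.23 at d20. At d0, 15 of 72 cells held UMIs, and at d20, 4 of 38, where 1 cell gave 59.9% of the sum. In the d12c cells numbered 49 to 96 the level was 18.7 CPM and 7 of 30 cells had a UMI. These values rest on few cells, and the d0 blocks ran from 0.17 to 13.7 CPM.

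*Chac1* (chr2:119176965-119180117, plus strand), which degrades glutathione and lies downstream of ATF4, was highest at d0. Its level was 7.28 CPM at d0, 1.53 at d1, 1.96 at d2, 1.97 at d3, 2.63 at d4, then 0.81 at d5, 0.91 at d6 and 1.55 at d12. UMIs were found in 15 of 72 d0 cells (20.8%, interval 12.2 to 32.0%) and in none of 62 cells at d8, 20 at d8c, 38 at d20 and the 21 kept d12c cells numbered 1 to 24. Taken as 3 cells of the total, a count of 0 allows shares of cells with a UMI of up to 4.84% at d8 and 7.89% at d20, and exact 95% intervals reach 5.78% and 9.25%. In UMIs summed over the kept cells, with 3 UMIs as the floor and no pseudocount, the level was at least 129-fold lower at d8 than at d0. At d20 it was at least 22.0-fold lower. These bounds cover counting error only, not the spread between cells. With the pseudocount of 1, the differences at the floor were -3.01 and -2.67. With no filter on cells, *Chac1* at d20 differed from d0 by -0.15 only. One block of d0, of 10 cells, also held none, so differences over pairs of blocks reached 0 at d8 and at d20.

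**Figure D3:**
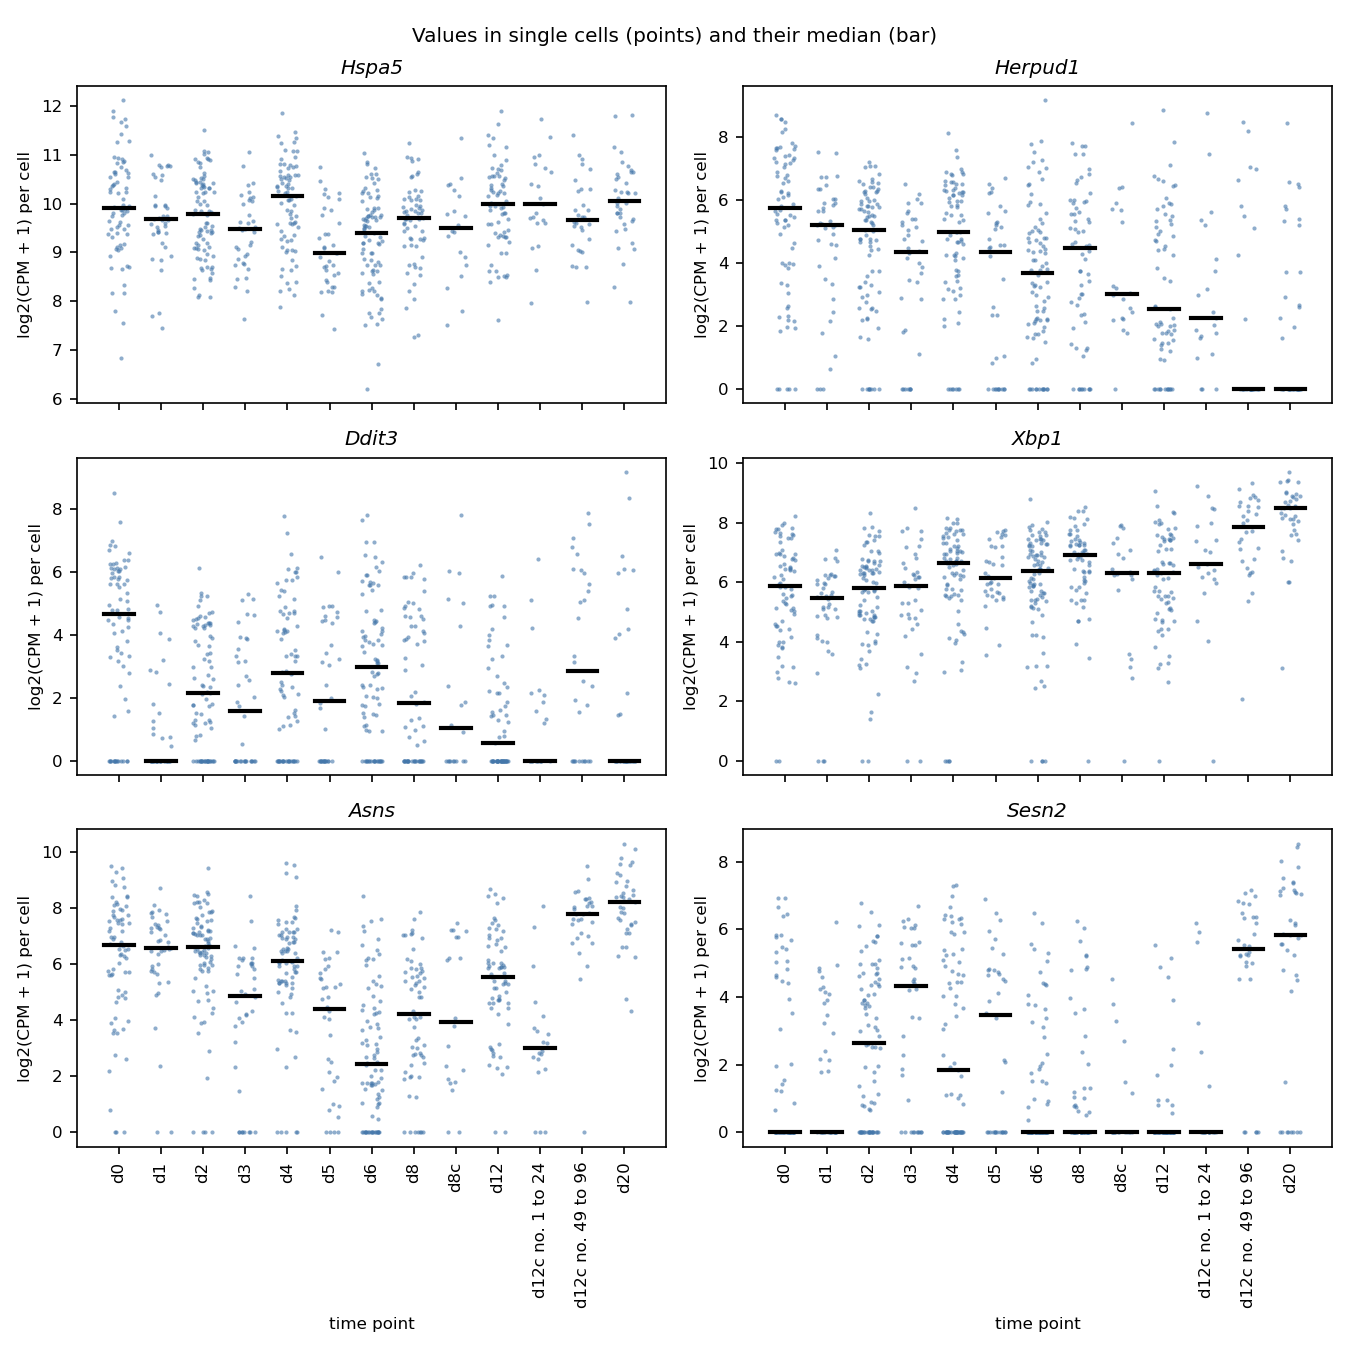
Log2(CPM + 1) in each kept cell (points) and the median (bar) of *Hspa5*, *Herpud1*, *Ddit3*, *Xbp1*, *Asns* and *Sesn2* by group. *Xbp1*, *Asns* and *Sesn2* are highest in the d12c cells numbered 49 to 96 and at d20 (median *Asns* 218 and 298 CPM), while the *Herpud1* median is 0 in both.

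The first day asks how the genes stood after the change to the cocktail. At d1, 4 of the 10 genes were lower than at d0 by over 1 and none was higher, where 11.7% of 9514 genes with at least 5 CPM in either group were lower and 9.75% higher. The median difference of the 10 was -0.83, against 0.02 over all these genes. *Ddit3* differed by -3.40, *Chac1* by -1.71, *Trib3* by -1.19 and *Herpud1* by -1.04. Blocks did not overlap for *Ddit3* and *Herpud1*, where 7.43% of all genes were lower in this way. *Asns* differed by -0.41 and *Atf4* by -0.45, within the spread of the d0 blocks. *Ddit3* alone of the 4 stayed past 1 when log2 values were averaged over cells, where 5.43% of all genes were lower. *Herpud1* was then at -0.75, and the median of all genes went from 0.02 to 0.50.

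Between d2 and d6 the levels moved unevenly. Against d0, 4 of the 10 genes were lower by over 1 at d2, where 8.88% of all genes were lower and 10.4% higher. At d3, 5 were, where 11.3% of all genes were lower and 15.7% higher. At d4, 2 were lower, where 10.7% of all genes were lower and 15.5% higher. At d5, 5 were lower and at d6, 7, where 10.2% and 15.5% of all genes were lower and 20.4% and 20.2% higher. None of the 10 was higher than at d0 by over 1 from d2 to d6. *Atf3*, 1 of the 7 at d6, was under 5 CPM in both groups. At d4, *Ddit3* (-1.02) and *Chac1* (-1.19) were the 2 lower genes, and *Hspa5* differed by -0.07. At d4, block means of *Sesn2* ran from 7.36 to 62.1 CPM and those of *Asns* from 65.0 to 128 CPM, so day 4 was itself uneven. All comparisons with the starting fibroblasts share the d0 cells.

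At d8, fibroblast markers were highest among the days named above. There, 7 of the 10 genes were lower than at d0 by over 1 and none was higher by that much, where 14.9% of 9928 genes were lower and 18.6% higher. The median difference was -1.11, against 0.04 over all genes. *Asns* differed by -1.93, *Ddit3* by -1.57, *Herpud1* by -1.14, *Sesn2* by -1.08 and *Atf3* by -1.03, beside *Trib3* at -2.57. *Chac1*, with no UMI at d8, was at -3.01 on summed UMIs with d8 set to the floor. Blocks did not overlap for *Asns*, *Ddit3* and *Herpud1*, where 9.12% of all genes were lower in this way. *Hspa5* (-0.50), *Atf4* (-0.74) and *Xbp1* (0.62) did not pass the size rule. *Atf3* was under 5 CPM at both d0 and d8. The lower genes numbered 3 when log2 values were averaged over cells, where 17.3% of all genes were lower, and 3 with a pseudocount of 10, where 6.8% were, and *Sesn2* turned to 0.86 in cells numbered above 48.

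At d12, unpicked cells had 5 of the 10 genes lower and 1 higher than at d0, where 19.3% of 9942 genes were lower and as many higher. The median difference was -1.25, against -0.14 over all genes. By TMM scaling 5 were again lower and 1 higher, where 15.2% of all genes were lower and 22.8% higher. *Ddit3* differed by -2.66, *Trib3* by -2.26, *Sesn2* by -2.25, *Chac1* by -1.70 and *Herpud1* by -1.52, and *Atf3* was the higher gene at 1.19. Blocks did not overlap for *Ddit3*, *Herpud1* and *Atf3*, where 12.7% of all genes were lower and 15.6% higher in this way. *Atf3* did not pass the size rule with averaged log2 values (0.47), summed UMIs (0.79) or a pseudocount of 10 (0.57). The lower genes numbered 3 with averaged log2 values (19.9% of all genes), with a pseudocount of 10 (8.87%) and in cells numbered above 48 (22.7%), where *Herpud1* was at -0.35. The 14 dissociation and immediate early genes summed to 1743 CPM at d0 and 3557 CPM at d12, and their part in the *Atf3* value was not tested.

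**Figure D4:**
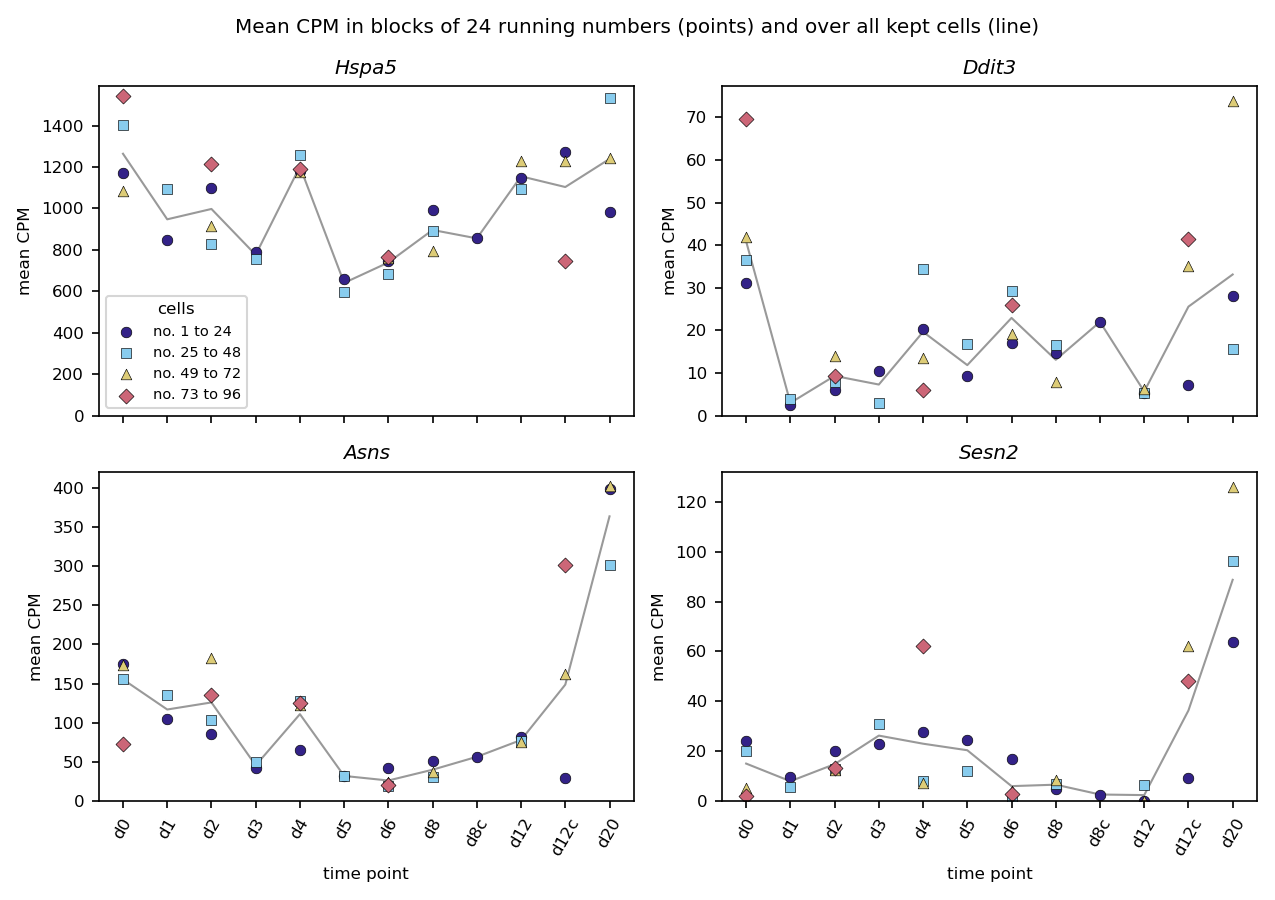
Mean CPM (vertical axis) of *Hspa5*, *Ddit3*, *Asns* and *Sesn2* over time points (horizontal axis), as means of blocks of 24 running numbers with at least 8 kept cells (points) and over all kept cells (grey line). *Asns* blocks of d20 (302 to 402 CPM) are above those of d0 and d12, and *Hspa5* blocks of d0 and d20 overlap.

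At d20, the end of the course, 3 of the 10 genes were higher and 3 lower than at d0, where 23.2% of 10157 genes were higher and 19.1% lower, so the counts were close to the background. *Sesn2* was higher by 2.49, *Xbp1* by 2.09 and *Asns* by 1.22, all with blocks that did not overlap, as for 15% of all genes. *Asns* was at 0.96 by TMM scaling (trimmed mean of M-values, on UMIs summed over the group). *Herpud1* was lower at -1.96 with blocks that did not overlap, as for 12.9% of all genes. *Atf3* differed by -1.18, and *Chac1*, with no UMI at d20, was at -2.67 on summed UMIs with d20 set to the floor. When all 808 cells entered, *Herpud1* was at -0.93, *Chac1* at -0.15 and *Atf3* at 0.42. *Atf3* was under 5 CPM at both d0 and d20. The median difference of the 10 was -0.20, against 0.19 over all genes. At d20 the higher genes were thus *Xbp1*, *Asns* and *Sesn2*, a number close to the background, and the others were lower or within the size rule, with *Hspa5* at -0.03.

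Against unpicked d12 cells, d20 cells had 5 of the 10 genes higher and 3 lower, where 30.8% of 10441 genes were higher and 22.9% lower. *Sesn2* was higher by 4.73, *Ddit3* by 2.36, *Asns* by 2.21, *Trib3* by 2.16 and *Xbp1* by 1.68, and *Atf3* (-2.37), *Atf4* (-1.26) and *Chac1* (-1.35, or -0.41 on summed UMIs with d20 set to the floor) were lower. Blocks did not overlap for all of these but *Trib3*, where 22.7% of all genes were higher and 19.8% lower in this way. *Chac1* was under 5 CPM in both groups. With no filter on cells it turned to 1.42, and with at least 2000 detected genes to 0.21. Lower members then numbered 1 in each setting, where 23.2% and 22.9% of all genes were lower. With at least 6000 detected genes per cell, *Ddit3* turned to -0.75 and *Trib3* to -0.33. *Asns* was thus higher where *Atf4* mRNA was lower. By TMM scaling, the median of all genes moved from 0.32 to -0.16 in this comparison and from 0.19 to -0.08 between d20 and d0. The share of calls that were higher went from 57.3% to 40.5% and from 54.8% to 43.4%. The factors are 1 for each group and shift all genes of a comparison alike, and *Hspa5* turned from 0.10 to -0.34.

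Colony cells were compared with unpicked cells of the same day, a comparison chosen after seeing the data, as was the split of d12c. In d8c, *Atf3* was higher than in d8 by 4.09 and *Sesn2* differed by -1.07, where 14.3% of 9961 genes were higher and 15.9% lower. Of 20 cells in d8c, 11 had an *Atf3* UMI, and the values ran from 0 to 337 CPM with a median of 1.24 CPM. The dissociation and immediate early genes summed to 5271 CPM in d8c, led by *Fos* at 1167 CPM, and to 2129 CPM in d8. Their part in the *Atf3* value was not tested.

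The d12c cells numbered 49 to 96 had 6 of the 10 genes higher than unpicked d12 cells by over 1 and none lower by that much, where 23.8% of 10187 genes were higher and 25% lower. *Sesn2* was higher by 4.06, *Atf3* by 3.48, *Trib3* by 3.42, *Ddit3* by 2.57, *Asns* by 1.56 and *Xbp1* by 1.21, and blocks did not overlap for any of the 6, as for 20.8% of all genes. The median difference of the 10 genes was 1.39, against 0.09 over all genes. These colony cells were shallower, with medians of 276240 UMIs and 5450.5 detected genes, against 768565 and 7938 at d12. Other cell filters, averaging and scaling were not applied to the comparisons of colony cells. The d12c cells numbered 1 to 24 had *Sesn2* higher by 1.60 and *Asns* (-1.38), *Chac1* (-1.35, or -0.48 on summed UMIs with the colony cells set to the floor) and *Atf3* (-1.07) lower, where 11.1% of 9733 genes were higher and 11.7% lower. *Chac1* was again under 5 CPM in both groups. The dissociation genes summed to 2865 CPM in the cells numbered 49 to 96, below the 3557 CPM of d12 and above their sum at d0. Of these genes, *Hspa1a* was higher than at d12 (2.14), and *Fosb*, *Junb*, *Dusp1*, *Zfp36* and *Nr4a1* were lower. The part of the dissociation genes in the *Atf3* value was not tested. The 5 epithelial markers summed to 539 CPM in the cells numbered 49 to 96, 191 CPM in those numbered 1 to 24, 124 CPM at d12 and 310 CPM at d20, against 4.37 CPM at d0, 14.1 CPM at d8 and 59.9 CPM in d8c. *Epcam* was the most abundant of them in both ranges of d12c (409 CPM in 49 to 96) and at d20 (284 CPM), where 3 of the 5, *Krt5*, *Krt14* and *Cldn4*, were at 0. Their part in the values of the 10 genes in these cells and at d20 was not tested. Numbers may stand for libraries, so library and cell state cannot be told apart here.

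Between these later-numbered colony cells and d20, 3 of the 10 genes were lower at d20 by over 1 and none higher by that much, where 11% of 9710 genes were lower and 18% higher. *Atf3* differed by -5.85, *Atf4* by -1.72 and *Trib3* by -1.26. *Asns* (0.65), *Sesn2* (0.67) and *Xbp1* (0.47) did not pass the size rule. Against d0, the colony cells had 4 of the 10 genes higher and 2 lower, where 19.8% of 10036 genes were higher and 22.8% lower. *Sesn2* (1.81) and *Xbp1* (1.62) passed the size rule there, as they did at d20, and *Asns* (0.58) did not.

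Within time points the genes varied together only weakly. At d0, over 72 cells of mixed depth, the median Spearman rho of the 45 pairs was 0.164, and 41 pairs were above 0. *Hspa5* and *Xbp1* had the highest rho, 0.581, followed by *Hspa5* with *Herpud1* at 0.531 and *Xbp1* with *Herpud1* at 0.415. *Trib3* and *Chac1* reached 0.379, and *Xbp1* with *Sesn2* was lowest at -0.177. The rho of *Hspa5* with *Xbp1* was 0.502 at d2, 0.512 at d8, 0.295 at d12 and 0.183 at d20. Cells of a time point share their culture and differ in depth, with which the genes had a median rho of 0.150 at d0 and 0.340 at d4, so these are descriptions of these cells.

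Cells high in several of the genes were counted against the 90th percentile of each gene at d0. At d0 itself 11 of 72 cells (15.3%) were above it for 3 or more of the 10 genes. This held for 0 of 40 cells at d1, 0 of 62 at d8, 1 of 67 at d12, 9 of 38 at d20 (23.7%) and 15 of 30 of the d12c cells numbered 49 to 96 (50%). In the other colony groups it held for 1 of 20 cells of d8c (5%) and 1 of 21 of the d12c cells numbered 1 to 24 (4.76%). No such count for other genes is given, so these shares stand without a background and do not set the 10 genes apart. At d20, 29 of 38 cells were above it for *Xbp1*, 20 for *Sesn2* and 14 for *Asns*, but 2 for *Hspa5* and 1 for *Herpud1*. In the d12c cells numbered 49 to 96, 21 of 30 were above it for *Atf3*, 17 for *Xbp1* and 12 for *Sesn2*. Of the other genes, *Atf4* and *Trib3* had 7 such cells each, *Ddit3* 5, *Asns* 4, *Herpud1* 2, *Hspa5* 1 and *Chac1* 0. These last groups had the lower depths given above, where 1 UMI is worth more CPM. At the same depth of 50000 UMIs, *Asns* was found in 97.2% of d20 cells, all of these colony cells and 83.1% of d0 cells, and *Atf3* in 2.78%, 69.2% and 8.45%.

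The genes most alike in pattern were sought by Pearson's r of log2(mean CPM + 1) over the 12 groups, among 8123 genes with at least 20 CPM in a group. *Asns* was nearest to *Nop56* (r = 0.981), which encodes a nucleolar protein of ribosome assembly, then to *Imp4* (0.952) and *Lman2l* (0.943). *Herpud1* was nearest to *Acta2* (0.985), the smooth muscle actin, then to *Anxa3* and *Creld2* (both 0.955), the last an ER stress gene. *Xbp1* was nearest to *Rhpn1* (0.954), *P4ha2* (0.943) and *Lama1* (0.937), and *Sesn2* to *Cd24a* (0.945), *Fhdc1* (0.940) and *Rnpep* (0.931). *Atf3* was nearest to the immediate early gene *Nr4a2* (0.840), *Atf4* to *Wdr83os* (0.912), *Ddit3* to *Spry1* (0.907), *Trib3* to *Sox9* (0.895) and *Chac1* to *Gm2115* (0.943). *Hspa5* was nearest to *Asns* (0.850). Among the 10 genes themselves, 27 of 45 pairs had an r above 0, and the lowest was *Xbp1* with *Herpud1* at -0.774. The points are group means that share 1 course, and d12c mixes its number ranges.

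Other genes of the pathway were read from 9 lists with 97 genes. Between 86 and 90 of them reached 5 CPM in the comparisons given next, with at most 3 genes of any list below it, and the shares are of those that did. At d1, 5 of 86 (5.81%) were higher and 8 (9.3%) lower than at d0, where 9.75% of all genes were higher and 11.7% lower. At d8, 16 of 88 (18.2%) were higher and 13 (14.8%) lower, against 18.6% and 14.9% of all genes. At d12, 16 of 89 (18%) were higher and 18 (20.2%) lower, against 19.3% each way. TMM scaling made these 23 and 13, where 22.8% of all genes were higher and 15.2% lower. At d20, 22 of 90 (24.4%) were higher and 15 (16.7%) lower, against 23.2% and 19.1%. The 22 became 12 by TMM scaling, 10 with spike-ins in the library size and 11 with averaged log2 values, where 17.8%, 17.4% and 17.6% of all genes were higher. Compared with d12, 25 of 88 (28.4%) were higher and 15 (17%) lower at d20, against 30.8% and 22.9%, and TMM scaling took the higher genes to 13, against 20.5% of all genes. The shares of the pathway genes were thus near or below those of all genes in these comparisons as first given.

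Of the 12 amino acid synthesis genes that ATF4 induces, 5 were lower and 1 higher at d8 than at d0, where 14.9% of all genes were lower and 18.6% higher. *Phgdh*, the first enzyme of serine synthesis, went from 249 to 33.4 CPM (-2.87), the mitochondrial folate enzyme *Mthfd2* from 78.2 to 15.5 CPM (-2.26) and *Shmt2*, which splits serine, from 77.6 to 15.9 CPM (-2.21). *Pycr1*, of proline synthesis, was the higher gene (1.94). Against d12, 7 were higher at d20 and none lower, led by *Cbs* (4.32), *Aldh18a1* (2.17) and *Psph* (1.92), where 30.8% of all genes were higher and 22.9% lower. The list median was 1.12 against 0.32 over all genes. By TMM scaling 4 of the 12 were higher, where 20.5% of all genes were, and the list median was 0.69 against -0.16. *Phgdh* was at 88.6 CPM at d20, which was still lower than at d0 (-1.48).

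None of the 12 cytosolic aminoacyl-tRNA synthetases, which charge tRNAs with amino acids, passed the size rule at d1, where 9.75% of all genes were higher and 11.7% lower, or at d8, where 18.6% were higher and 14.9% lower. At d12 *Lars* (-1.55) and *Sars* (-1.40) were lower than at d0, as were 19.3% of all genes. Against d12, 7 of the 12 were higher at d20 and none lower, led by *Lars* (1.90), *Gars* (1.77) and *Mars* (1.70), where 30.8% of all genes were higher and 22.9% lower. Their summed level was 1820 CPM at d0, 1219 at d8, 1038 at d12 and 2034 at d20. By TMM scaling 3 of the 12 were higher at d20 than at d12, close to the 20.5% of all genes, with a median of 0.59 against -0.16.

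Of the 10 amino acid transporters, 5 were lower and 1 higher at d8 than at d0, against 14.9% and 18.6% of all genes. The glutamine carrier *Slc1a5* went from 38.4 to 2.16 CPM (-3.64), and *Slc3a2*, the heavy chain of several carriers, was the higher gene (1.13). At d20, *Slc38a1*, another glutamine carrier, was at 274 CPM against 22.0 CPM at d0 (3.58). *Slc7a11*, which imports cystine, was at 41.7 CPM at d12 and 0.876 CPM at d20 (-4.51). Between d12 and d20, 3 of the 10 were higher and 1 lower, where 30.8% of all genes were higher and 22.9% lower.

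The 16 ER chaperones and folding enzymes that ATF6 and XBP1 induce had at most 1 gene called each way at d1, d8 and d20. At d8, *Dnajb9* (1.12) was higher and *Ero1l* (-1.64) lower than at d0, and at d20, *Sdf2l1* (1.17) was higher and *Hyou1* (-1.55) lower, which TMM scaling made 0 higher and 3 lower, where 17.8% of all genes were higher and 23.3% lower. These counts stand beside 9.75% of all genes higher and 11.7% lower at d1, 18.6% and 14.9% at d8, and 23.2% and 19.1% at d20. At d12, *Dnajc3* (-1.15) and *Creld2* (-1.14) were lower, where 19.3% of all genes were. In the d12c cells numbered 49 to 96, 5 of the 16 were lower than at d0, led by *Hyou1* (-2.17), where 22.8% of all genes were. Their median difference at d20 was -0.14, and their summed level was 6079 CPM at d0, 6203 at d8 and 5255 at d20. Of the 11 genes of ER-associated degradation, 4 were higher at d8 and none lower, namely *Os9* (1.81), *Selenos* (1.22), *Edem2* (1.19) and *Derl1* (1.15), where 18.6% of all genes were higher and 14.9% lower. At d20, *Edem2*, which trims mannose from misfolded glycoproteins, was at 196 CPM against 14.6 CPM at d0 (3.66), while *Edem1* (-1.83) and *Ube2j1* (-1.14) were among the lower genes.

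**Figure D5:**
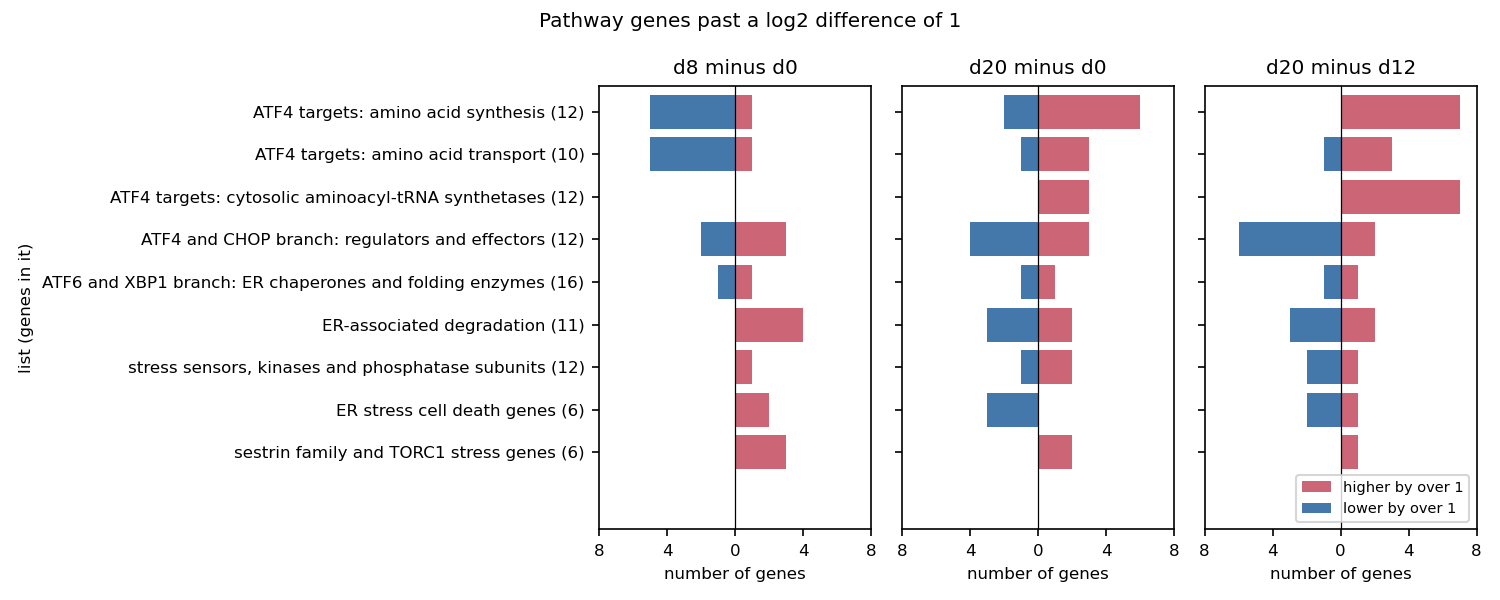
Number of genes in each pathway list with at least 5 CPM in either group (bars to the right, higher by over 1, and to the left, lower by over 1) at d8 against d0, d20 against d0 and d20 against d12. Amino acid synthesis and tRNA synthetase genes have 7 higher and none lower at d20 against d12, and ER chaperones have 1 each way in all 3 comparisons.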

How the data were processed

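The authors deposited 1 table of counts, in which each value is the number of distinct UMIs of a gene in a cell, read against mm9 transcripts. The aligner is not given in the sources used here. Whole-number counts were used as deposited, with 4 entries of duplicated names and 92 spike-in RNAs (5.43% of counts) left out. Cells with at least 4000 detected genes were scaled to CPM and averaged, with a pseudocount of 1. The share of all genes past the same size rule was taken among genes with at least 5 CPM in either group. Blocks needed at least 8 kept cells. For thinning to 50000 UMIs, 23 kept cells were too shallow. Intervals at 95% (Poisson for UMIs, Clopper-Pearson for shares) cover counting error only.

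The members and lists were chosen with earlier results of these data known. Named genes were the 10 members, the 3 largest rises and falls per list and the 3 nearest patterns per member. Others were named after their values were seen. A result for 1 listed gene is not reported here. Alternatives covered the cell filter, averaging, scaling (edgeR 4.0.16, DESeq2 1.42.0), pseudocount and number ranges. Python 3.11.15 was used. The size rule was also tried on simulated counts, with known changes placed only in the more abundant d0 genes. That trial did not cover changes in genes of low level or differences between libraries.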

Additional observations from a re-analysis of the deposited data

How the results depend on the processing

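Of 31 called differences of the 10 genes at d1, d8, d12 and d20 against d0 and at d20 against d12, 26 kept their sign and 11 stayed past 1 under all other settings but single pairs of blocks. The 11 were *Ddit3* at d1, d8 and d12, *Asns* at d8, *Sesn2* at d12 and, at d20, *Xbp1* and *Sesn2* against both d0 and d12 and *Asns* and *Atf4* against d12. With no filter on cells, *Atf3* at d20 turned to 0.42 against d0 and *Chac1* to 1.42 against d12, and with 2000 detected genes to 0.50 and 0.21. Lower members then numbered 0 and 1 (d20 against d0 and d12, with 20% and 23.2% of all genes lower), and 1 and 1 (19% and 22.9%). With 6000 detected genes, 5 members were lower at d20 than at d0 (20.2% of all genes), 3 were higher than at d12 (29.6%), and *Ddit3* (-0.75) and *Trib3* (-0.33) turned. Averaging log2 values left 1 lower member at d1, 3 at d8 and 3 at d12, 0 higher at d12 and 3 higher at d20 against d12. Of all genes, 5.43%, 17.3% and 19.9% were then lower at d1, d8 and d12, 23% higher at d12 and 24.1% higher at d20 against d12, and the median of all genes went from 0.02 to 0.50 at d1 and from 0.32 to -0.16 at d20 against d12. Pathway genes then gave 10 higher and 2 lower at d1 (24.4% and 5.43% of all genes) and 11 higher at d20 against d0 (17.6%). Summed UMIs gave 1 higher member at d1 and 0 at d12 (9.16% and 19.4% of all genes). Higher pathway genes at d20 numbered 12 against d0 and 13 against d12 by TMM (17.8% and 20.5% of all genes), 13 against d12 by DESeq2 factors (23.1%) and 10 against d0 with spike-ins in the library (17.4%). With a pseudocount of 10, lower members numbered 1 at d1, 3 at d8, 3 at d12, 1 at d20 against d0 and 1 against d12, and 0 were higher at d12. Pathway genes then were 2 higher and 4 lower at d1, 10 and 7 at d8, 10 and 11 at d12, 11 and 6 at d20 against d0, and 15 higher against d12. At this pseudocount 3.41% of all genes were higher and 4.78% lower at d1, 8.31% and 6.8% at d8, 10.7% and 8.87% at d12, 11.3% and 10.3% at d20 against d0, and 17.1% and 14.5% against d12.

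In cells numbered above 48, lower pathway genes numbered 20 at d8 and 23 at d20 against both d0 and d12 (21.5%, 27% and 28.5% of all genes), 3 members were lower at d12 (22.7%), and *Sesn2* at d8 turned to 0.86. There was no such cell at d1. Over single pairs of blocks, chosen after seeing the data, the highest were 2.45 (*Trib3*) and 1.35 (*Chac1*) at d1, 1.09 (*Atf3*), 0.50 (*Trib3*) and 1.70 (*Sesn2*) at d8, and 1.32 (*Trib3*), 1.57 (*Chac1*) and 1.35 (*Sesn2*) at d12. At d20 the highest *Atf3* pair was 1.38 against d0 and the lowest *Trib3* pair was -1.21 against d12. The causes were not tested. No paired analysis was possible because cell names carry no replicate number. Low counts limit *Trib3*, *Chac1* and, at d20, *Atf3*.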

Other observations

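Regulators around ATF4 and CHOP were also measured. *Gdf15*, a secreted stress cytokine, was at 124 CPM at d0, 24.3 at d1, 7.27 at d8, 6.51 at d12 and 1.40 at d20. *Cebpb*, which encodes a C/EBP partner of ATF4, was at 11.3 CPM at d0, 69.8 at d12 and 0.0475 at d20. *Ppp1r15a*, the phosphatase subunit that reverses eIF2α phosphorylation, was at 44.1 CPM at d0, 38.2 at d12 and 109 at d20. *Vegfa*, an angiogenic factor, was at 6.28 CPM at d0 and 70.0 CPM at d12 (3.28). In the list of 12 regulators, 4 were higher and 2 lower at d12 than at d0, where 19.3% of all genes were higher and as many lower. At d20, 2 were higher and 6 lower than at d12, where 30.8% of all genes were higher and 22.9% lower.

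Among stress sensors, *Creb3l2*, an ER-bound transcription factor of secretory cells, was at 8.56 CPM at d0, 75.3 at d12 and 84.6 at d20 (3.16). *Eif2ak4*, the gene of GCN2, was at 10.6 CPM at d0, 1.02 at d12 (-2.53) and 18.3 at d20. Of the 6 cell death genes, *Pmaip1* was at 27.2 CPM at d0, 341 at d12 (3.60) and 33.6 at d20, and *Bcl2l11* at 7.76, 61.2 (2.83) and 2.62 CPM. Both encode BH3-only proteins that promote apoptosis. *Tnfrsf10b*, a death receptor, was lower at d12, at 8.05 CPM against 26.6 CPM (-1.61), and so was *Bcl2*, an inhibitor of apoptosis, at 0.0387 CPM against 6.62 CPM (-2.88). Thus 2 of the 6 were higher and 2 lower at d12, where 19.3% of all genes were higher and as many lower, and *Bbc3* differed by -0.91. In the sestrin list, *Sesn3* was higher at d8 than at d0 by 2.39, where *Sesn2* differed by -1.08.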
